A study of Mus musculus with 6 samples.

Results

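Lysosomes are the acidic compartments in which cells break down proteins, glycans, lipids and nucleic acids, and 51 genes of their hydrolases, membrane proteins and delivery machinery were followed here in macrophages exposed to an extract. The genes were taken by symbol from a list of lysosomal genes, and all 51 were found among the 52636 genes of each table and among the 11561 genes with enough counts to be tested. RAW264.7, a macrophage line of BALB/c mouse origin, was kept for 24 h with the extract C2S at 150 µg/ml (3 libraries) or at 0 µg/ml (3 libraries, PM_control). The labels spell out neither C2S nor PM and name no vehicle. They do not say whether the libraries of a group came from separate cultures, so p-values measure only the spread between these libraries, which may be technical.

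Lysosomal hydrolases are made in the endoplasmic reticulum and tagged in the Golgi with mannose 6-phosphate, which receptors read to carry them to late endosomes. Cathepsins cut proteins, glycosidases and sulfatases take glycans apart from their ends, and lipid hydrolases work with small lipid-binding activator proteins. Macrophages hold large amounts of these enzymes because they digest what they engulf. Many lysosomal genes share a promoter sequence, the CLEAR element, which is bound by the transcription factors TFEB, TFE3 and MITF.

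With C2S, 30 of the 51 genes rose, 3 fell and 18 were not called by edgeR's quasi-likelihood test at an adjusted p of 0.05. Among all genes tested, 27.0% were called higher and 28.4% lower, 55.4% in all. The median log2 fold change of C2S over PM_control was 0.27 for the 51 genes and -0.00 for all genes tested. The steep rises were those of Gla and Ctns, while the other 28 rises lay between 1.18-fold and 1.60-fold. The genes that fell were Pla2g15, Gnptab and Gusb. Only Gla and Ctns were called with a change of at least 2-fold, against 14.5% of all tested genes that were called with such a change. The 3 C2S values lay above all 3 PM_control values for 33 of the 51 genes and below them for 4, against 29.8% and 31.4% of all genes tested. In bulk RNA, a change of RNA per cell and a change in the mix of cells cannot be told apart.

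**Figure D1:**
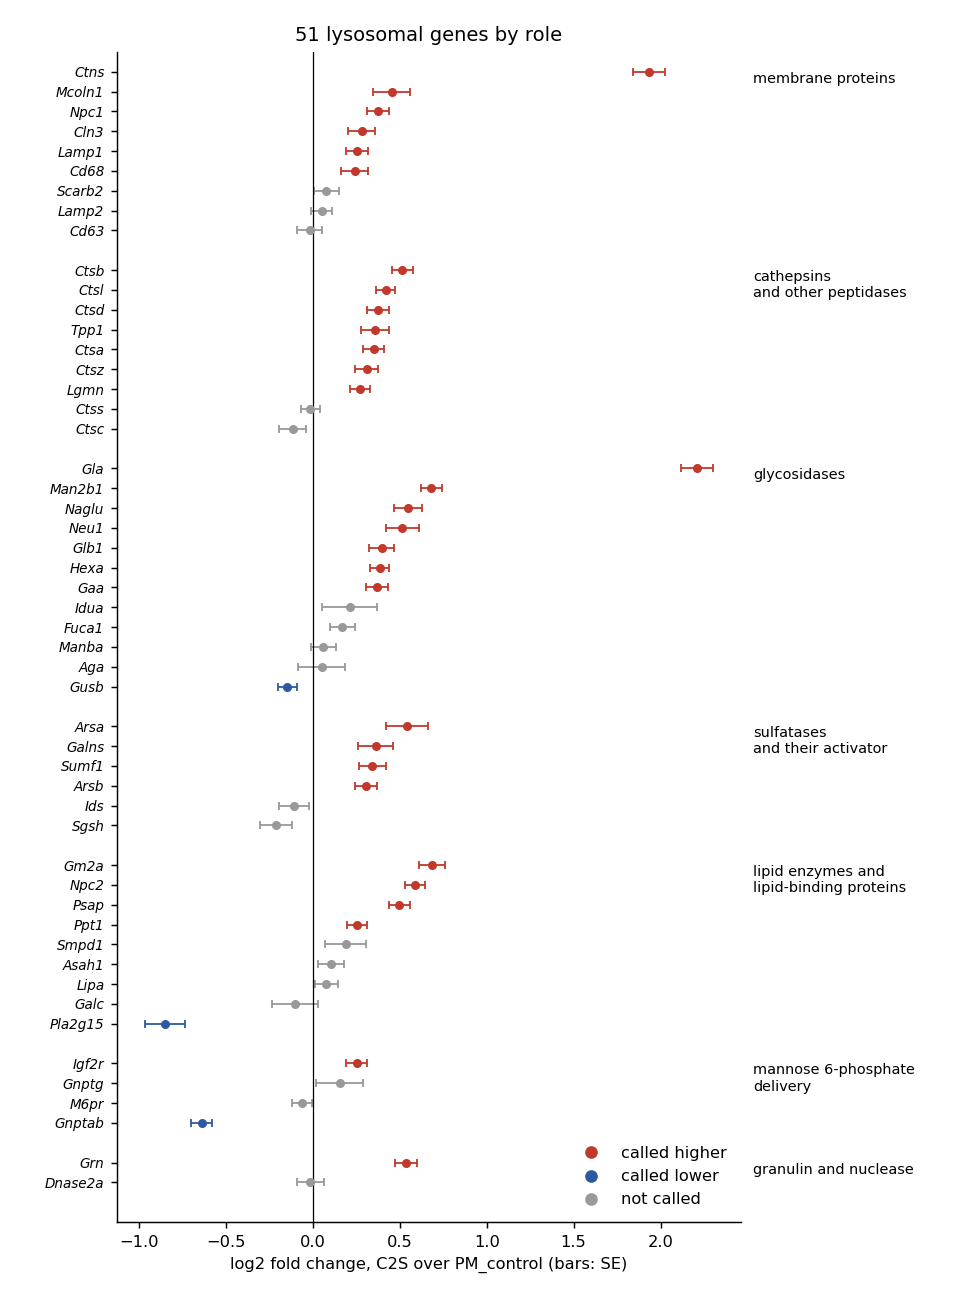
Log2 fold change of C2S over PM_control for 51 lysosomal genes (x axis; points with SE as bars, n = 3 per group), grouped by role. Of these genes, 30 were called higher, 3 lower and 18 were not called, and Gla at 2.21 and Ctns at 1.93 stand apart on the right.

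The promoters of several of these genes carry the core of the CLEAR element, and those letters are shown because they are a sequence feature that 14 of the genes share. In the RefSeq promoter table (GRCm38.p6, 250 bases before to 50 after each start), 45 of the 51 genes had an entry. Npc1, Ctsb, Aga, Galns, Asah1 and M6pr had none. The word GTCACGTG, read on either strand, was found in 14 of the 45 (31.1%). It was found in 5.04% of the 8722 tested genes with an entry and in 2.25% of all 32851 promoters. The windows below hold 30 bases around the match nearest to the start on its upstream side, 5′ to 3′ on the gene's strand, with the word in capitals; CACGTGAC is the same word read on the other strand. Gla, Naglu, Arsa and Mcoln1 were the word's holders with the steepest rises, Cln3 and Igf2r hold it within the full 10-letter CLEAR palindrome, and Gnptg and Sgsh hold the word but were not called.
Gla, chrX:134601183-134601212, minus strand: gtgagatctcgGTCACGTGagcaactctcg
Naglu, chr11:101070008-101070037, plus strand: ccaaccttcagGTCACGTGgcccgaggtcg
Arsa, chr15:89477424-89477453, minus strand: ttcaactcagtGTCACGTGttgtctgctcc
Mcoln1, chr8:3500463-3500492, plus strand: ggcgccccgctCACGTGACcgcggcgcatg
Cln3, chr7:126583339-126583368, minus strand: acgggtactgtCACGTGACccccaacctgc
Igf2r, chr17:12769695-12769724, minus strand: ccgactcaggtCACGTGACgctccggggac
Gnptg, chr17:25240119-25240148, minus strand: cggctgtcactCACGTGACcgtgagaccct
Sgsh, chr11:119355521-119355550, minus strand: ggcctgccgtgCACGTGACcgtggggagcg

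For Gla, the gene with the steepest rise, the longer upstream stretch chrX:134601126-134601255 (minus strand, 130 bases, all before the gene's start in both RefSeq and GENCODE M21) is given with the same word in capitals.
Gla: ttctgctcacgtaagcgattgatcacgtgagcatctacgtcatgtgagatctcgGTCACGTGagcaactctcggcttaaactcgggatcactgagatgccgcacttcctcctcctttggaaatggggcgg

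The remaining holders of the word were Glb1, Ctsd, Ctsa, Sumf1, Lgmn and Lamp1, so that the 14 came from 5 of the 7 role groups used below: membrane proteins, peptidases, glycosidases, sulfatases and delivery. Over the 14 genes the nearest upstream match lay 7 to 196 bases before the start, and within 100 bases in 12 of them. Ctsa also has a match after the start. The Gnptg match is a single site, which lies before a listed start of the gene and after another. Of the 14 holders, 12 rose and 0 fell by edgeR's test, with a median log2 fold change of 0.34. Of the 31 genes with an entry and without the word, 15 rose and 3 fell, with a median of 0.21. Over all tested genes with an entry, 33.2% of 440 with the word and 26.8% of 8282 without it were called higher, with medians of 0.04 and -0.02. The shares called lower were 29.1% with the word and 29.6% without it. Of the other lysosomal genes, from the textbook lists described further on, 63 had an entry and 6 of these held the word (9.52%, against 31.1% of the members). Of those 6 genes, 3 rose and 1 fell, with a median of 0.18. These shares are descriptions, since a match of letters is no proof of a bound site, and no test was made between holders and non-holders.

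The shorter word CACGTG, which lies inside GTCACGTG, was in 16 of the 45 promoters (35.6%), against 12.1% of tested genes and 7.15% of all promoters. The full 10-letter CLEAR palindrome was in 2 (4.44%), against 0.848% of tested genes and 0.326% of all promoters. TGACTCA, the word of AP-1 factors, was in 4 (8.89%), against 4.22% and 5.20%. The share of holders was several times that of tested genes for the CLEAR-type words, and it was also higher for the AP-1 word. The CLEAR-type words lie inside each other, so their shares are not separate results, and the longest was found in only 2 genes. Since many lysosomal genes share the CLEAR element, its higher share in a lysosomal list could be foreseen and says nothing about C2S. Ctns, Man2b1, Gm2a, Npc2, Grn and Psap rose and have no GTCACGTG in this window.

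**Figure D2:**
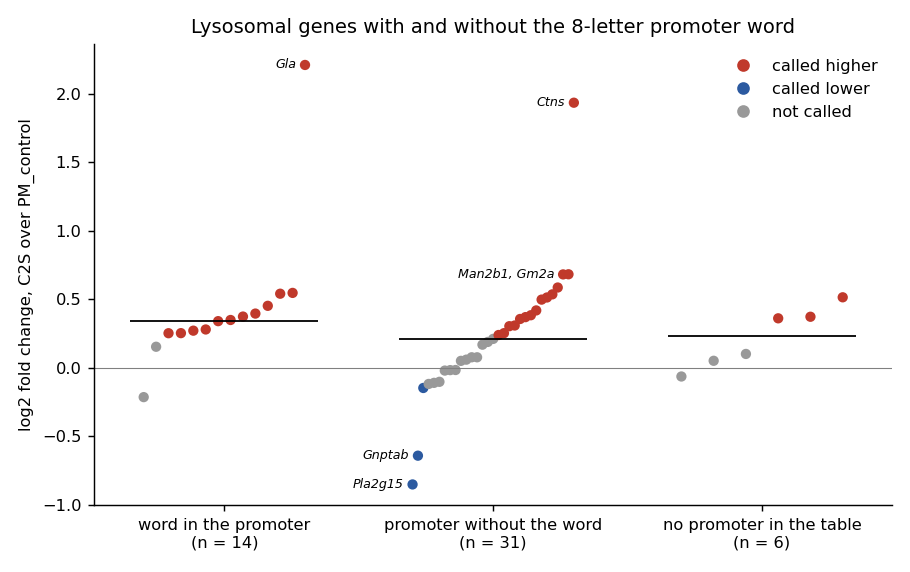
Log2 fold change of C2S over PM_control (y axis) for lysosomal genes with GTCACGTG in the 300-base promoter, with a promoter entry and no such word, and with no entry. Lines mark medians, which were 0.34 for the 14 holders and 0.21 for the 31 genes without the word. The genes called lower all lack it, while over all tested genes 29.1% with the word and 29.6% without it were called lower.

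Among the glycosidases, 7 of 12 rose, 1 fell and 4 were not called, with a median log2 fold change of 0.38. Gla, chrX:134588149-134601125 (GRCm38, as are the gene coordinates that follow), encodes alpha-galactosidase A, the enzyme that is deficient in Fabry disease. Gla stood at 83.8, 88.5 and 85.6 CPM (a gene's count relative to the library total, adjusted with edgeR's TMM factors) with C2S and at 16.7, 18.8 and 20.4 in controls. The lowest C2S value was over 4 times the highest control value. Its log2 fold change was 2.21 ± 0.09 (SE, adjusted p = 3.54e-12, edgeR). Gla's average transcript length, as the tables give it, differed between libraries (2526.76, 3172.00 and 2637.00 bases with C2S; 3172.00, 1662.77 and 2374.48 in controls), and on the log2(TPM + 1) scale, where TPM, a share of transcripts, divides by that length, its difference was 1.74 (adjusted p = 0.0015, limma).

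Man2b1, chr8:85083270-85098282, the lysosomal alpha-mannosidase, stood at 289, 290 and 292 CPM with C2S and at 189, 184 and 169 in controls. The C2S values nearly coincide and lie well above the controls, and the log2 fold change was 0.68 ± 0.06 (adjusted p = 5.55e-08, edgeR). Naglu, chr11:101070012-101077672, which takes N-acetylglucosamine off heparan sulfate, stood at 60.5, 66.6 and 58.8 CPM with C2S. In controls it was 42.1, 42.6 and 42.5, and all C2S libraries were higher (log2 fold change 0.55 ± 0.08, adjusted p = 2.48e-05, edgeR). Neu1, the sialidase, rose by 0.51 ± 0.10 (log2), and Glb1, the acid beta-galactosidase, by 0.40 ± 0.07. Hexa, the alpha subunit of beta-hexosaminidase, rose by 0.38 ± 0.06, and Gaa, which degrades glycogen in lysosomes, by 0.37 ± 0.06.

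Gusb, chr5:129989011-130003049, encodes beta-glucuronidase and moved the other way. It stood at 462, 477 and 466 CPM with C2S and at 514, 541 and 500 in controls, groups that do not overlap. Its log2 fold change was -0.15 ± 0.06 (adjusted p = 0.0384, edgeR), a small fall whose call was lost without C2S replicate 1 (adjusted p = 0.102), without C2S replicate 3 (0.0994), without PM_control replicate 1 (0.0599), without PM_control replicate 2 (0.158) and with RLE normalization (0.0615). Fuca1, an alpha-fucosidase, was not called although its groups do not overlap: 97.0, 86.4 and 91.7 CPM with C2S against 85.3, 77.7 and 81.9 (log2 fold change 0.17 ± 0.07, adjusted p = 0.0597, edgeR). Idua at 0.21 ± 0.16, Manba at 0.06 ± 0.07 and Aga at 0.05 ± 0.13 on the log2 scale were not called either. Together these act on dermatan and heparan sulfate, on mannosides and on glycosylated asparagine.

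Of the peptidases, 7 of 9 rose and 0 fell by edgeR's test, with a median log2 fold change of 0.35. Ctsb, chr14:63122462-63145923, encodes cathepsin B, a cysteine protease, and had the highest mean TPM of the 51 genes. It stood at 2787, 2836 and 2661 CPM with C2S and at 1902, 1997 and 1900 in controls. The groups are far apart, and the log2 fold change was 0.51 ± 0.06 (adjusted p = 2.11e-06, edgeR). Ctsl, chr13:64359337-64370890, a second cysteine cathepsin, stood at 394, 381 and 376 CPM against 283, 286 and 292. All C2S values were higher by a similar margin (0.42 ± 0.06 on the log2 scale, adjusted p = 6.92e-06, edgeR). Ctsd, chr7:142375911-142388038, the aspartic protease of lysosomes, stood at 1705, 1738 and 1678 CPM against 1266, 1405 and 1281 (log2 fold change 0.37 ± 0.06, adjusted p = 7.81e-05, edgeR).

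Tpp1, a tripeptidyl peptidase, rose by 0.36 ± 0.08 on the log2 scale. Ctsa, the carboxypeptidase that protects Glb1 and Neu1 in a complex, rose by 0.35 ± 0.06. Ctsz, another carboxypeptidase, rose by 0.31 ± 0.07, and Lgmn, the asparaginyl endopeptidase that trims other cathepsins, by 0.27 ± 0.06. The 2 peptidases that were not called are Ctss, which trims the invariant chain for antigen presentation, at -0.02 ± 0.05, and Ctsc, a dipeptidyl peptidase that activates serine proteases, at -0.12 ± 0.08. Their levels were 308, 313 and 308 CPM with C2S against 309, 310 and 321 for Ctss. For Ctsc they were 90.6, 86.9 and 78.7 against 85.3, 100 and 92.7, and the groups of both genes overlap. With library sizes alone Ctsc was called lower (-0.20, adjusted p = 0.037, edgeR).

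Exons of several members overlap another gene, and no source used here states the strand of counting, so reads there could belong to either gene. The shared part was 34.4% of the exon length for Ctsd (with Gm49369), 26.8% for Ctsl (Gm47123), 12.8% for Ctsb (Fdft1), 10.5% for Ctsa (Pltp) and 12.8% for Hexa (Tmem202). Gm47123 had a mean of 1.1 CPM with C2S and 0.06 in controls, far below the 384 and 287 CPM of Ctsl. Fdft1 had 47.8 and 32.5 CPM beside 2761 and 1933 for Ctsb. By reads, these partners were thus small beside Ctsl and Ctsb, but the values remain uncertain by the shared part. The same holds for Gnptg (49.5%, Unkl), Arsb (32.3%, Gm26527), Dnase2a (30.0%, Mast1), Sgsh (21.6%, Card14) and Arsa (18.8%, C230037L18Rik). Among these 10 members, the partners with most reads beside their member were Unkl, at 7.89 CPM with C2S and 9.84 in controls beside 14.0 and 12.6 for Gnptg, and Gm26527, at 87.4 and 76.7 beside 276 and 224 for Arsb. Smaller overlaps can also be with abundant genes: Ppt1 shares 3.5% of its exon length with Cap1 (1050 and 1159 CPM beside 233 and 196), and Cln3 shares 7.6% with Apobr (56.3 and 70.4 beside 62.2 and 51.2). Glb1 shares 5.5% with Tmppe on the same strand. Tmppe was lower with C2S, at 10.0 CPM against 26.7, beside 83.5 and 63.5 for Glb1. How far the split of reads between these 2 genes enters the rise of Glb1 was not tested.

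Sulfatases take sulfate groups off glycans and glycolipids and need the formylglycine-generating enzyme Sumf1 to become active. Of these 6 genes, 4 rose and 0 fell by edgeR's test, with a median log2 fold change of 0.32. Arsa, chr15:89472476-89477425, which acts on the myelin lipid sulfatide, stood at 23.9, 21.2 and 23.7 CPM with C2S and at 15.1, 14.9 and 17.3 in controls. The groups do not overlap (0.54 ± 0.12 on the log2 scale, adjusted p = 0.0012, edgeR). Galns, chr8:122578242-122611463, which acts on keratan sulfate, stood at 37.3, 41.2 and 40.0 CPM against 26.4, 32.6 and 33.4 (0.36 ± 0.10, adjusted p = 0.0064, edgeR). Sumf1, chr6:108107028-108185582, stood at 92.0, 79.8 and 91.0 CPM against 70.4, 71.8 and 65.6, with all C2S libraries higher (0.34 ± 0.08, adjusted p = 0.0015, edgeR).

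Arsb, which acts on dermatan sulfate, rose by 0.30 ± 0.06 on the log2 scale. Sgsh and Ids, which remove sulfate from heparan sulfate, were on the negative side without a call. Sgsh stood at 35.8, 34.7 and 36.6 CPM with C2S and at 45.8, 40.0 and 38.2 in controls. Each of its C2S values was below each control value, with an adjusted p of 0.0593 (log2 fold change -0.21 ± 0.09, edgeR). Ids was at -0.11 ± 0.09. Sgsh was called lower with library sizes alone (adjusted p = 0.0099, edgeR), with a GC correction (0.016) and without PM_control replicate 3 (0.034). Among the heparan-degrading enzymes in the list, then, Naglu rose, Gusb fell, and Sgsh, Ids and Idua were not called.

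Of the 9 lipid enzymes and lipid-binding proteins, 4 rose, 1 fell and 4 were not called, with a median log2 fold change of 0.19. Of the 4 that rose, 3 are proteins that present or carry lipids rather than cut them. Gm2a, chr11:55098115-55113029, the GM2 ganglioside activator, stood at 98.0, 88.2 and 99.2 CPM with C2S and at 58.8, 59.1 and 60.1 in controls. Every C2S value lay well above every control value (0.68 ± 0.07 on the log2 scale, adjusted p = 8.02e-07, edgeR). Npc2, chr12:84754562-84773152, which hands cholesterol to Npc1, stood at 314, 298 and 291 CPM against 195, 201 and 206 (0.59 ± 0.06, adjusted p = 2.31e-07, edgeR). Psap, chr10:60277627-60302597, the precursor of the 4 saposins, stood at 1316, 1323 and 1283 CPM against 928, 961 and 889 (0.50 ± 0.06, adjusted p = 2.08e-06, edgeR). In both genes the groups are well apart.

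Ppt1, a thioesterase that takes palmitate off proteins, rose by 0.25 ± 0.06 on the log2 scale. Among the lipid hydrolases proper, Pla2g15 fell and the others were not called. Pla2g15, chr8:106150399-106164715, a lysosomal phospholipase, stood at 18.2, 17.2 and 14.4 CPM with C2S and at 30.0, 29.2 and 30.6 in controls. It had the steepest fall of the 51 genes (log2 fold change -0.85 ± 0.11, adjusted p = 8.19e-06, edgeR), and its highest C2S value was well below its lowest control value. Smpd1, acid sphingomyelinase, had groups that do not overlap at 19.8, 19.4 and 20.6 CPM against 17.4, 16.8 and 18.3, but was not called (0.19 ± 0.12, adjusted p = 0.182, edgeR). Asah1, acid ceramidase, was at 0.10 ± 0.07, Lipa, acid lipase, at 0.08 ± 0.06, and Galc, which acts on galactosylceramide, at -0.10 ± 0.13. With a correction of each library for GC content, Lipa (0.26, adjusted p = 0.0029, edgeR) and Asah1 (0.23, adjusted p = 0.011, edgeR) were called higher.

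**Figure D3:**
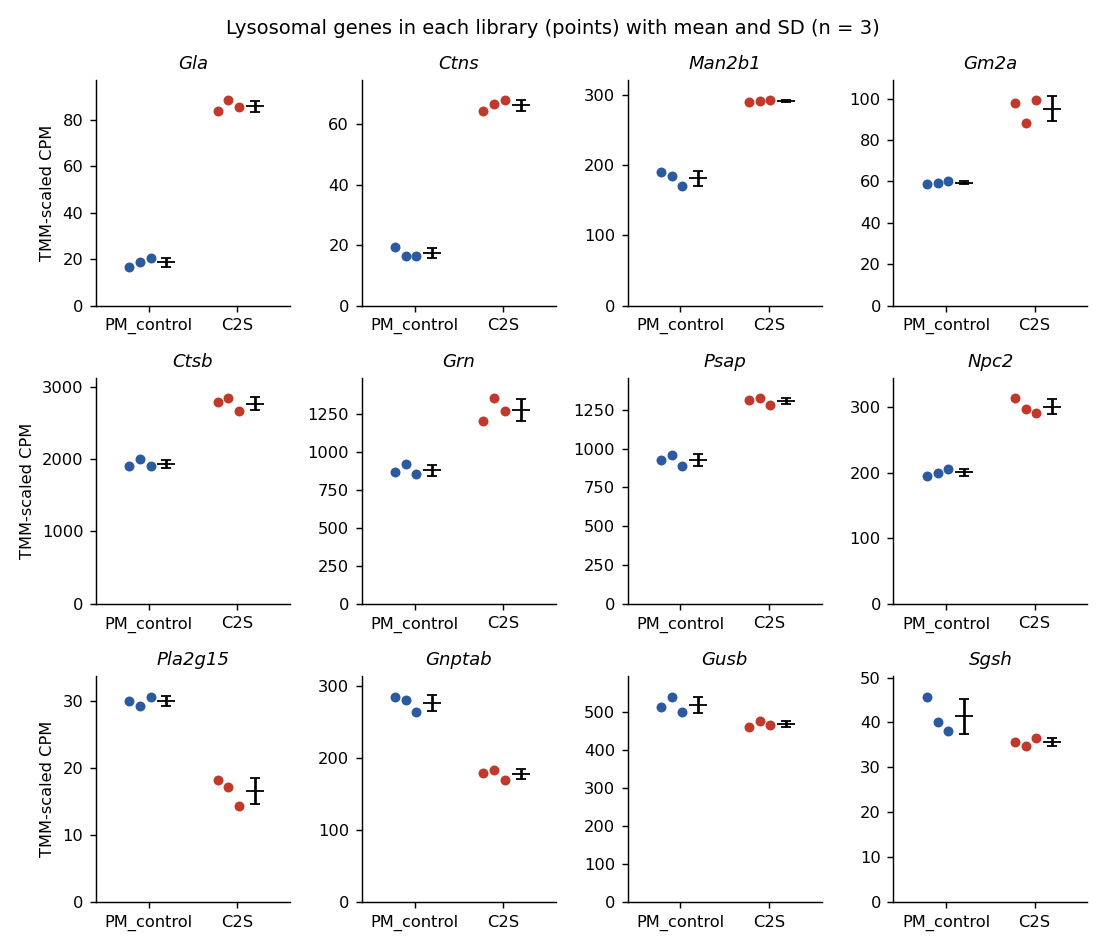
TMM-scaled CPM in each library (points) with mean and SD (n = 3 per group) for 12 of the genes; each y axis starts at 0. The 2 groups do not overlap in any of the 12, which were chosen with their values known. C2S is higher in Gla, Ctns, Man2b1, Gm2a, Ctsb, Grn, Psap and Npc2. It is lower in Pla2g15, Gnptab, Gusb and Sgsh, of which Sgsh was not called. Over all genes tested, the 3 C2S values lay above all 3 PM_control values for 29.8% and below them for 31.4%.

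Of the 9 membrane proteins, 6 rose and 0 fell by edgeR's test, with a median log2 fold change of 0.25. Ctns, chr11:73183596-73199042, encodes cystinosin, which exports cystine from the lysosome. It stood at 64.2, 66.7 and 67.9 CPM with C2S and at 19.3, 16.4 and 16.3 in controls. The groups are far apart (log2 fold change 1.93 ± 0.09, adjusted p = 2.93e-11, edgeR). Mcoln1, chr8:3500457-3515232, the calcium channel TRPML1, stood at 33.3, 33.8 and 35.1 CPM against 22.4, 23.8 and 28.7 (0.45 ± 0.11, adjusted p = 0.0017, edgeR). Npc1, chr18:12189692-12236400, which moves cholesterol out of the lysosome, stood at 160, 173 and 164 CPM against 128, 134 and 122, with no overlap (0.37 ± 0.06, adjusted p = 8.15e-05, edgeR).

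The abundant membrane glycoproteins moved less. Lamp1, chr8:13159161-13175338, a main glycoprotein of the lysosomal membrane, stood at 995, 1093 and 1012 CPM with C2S and at 849, 904 and 849 in controls (0.25 ± 0.06, adjusted p = 0.0022, edgeR). Cd68, chr11:69664213-69666153, the LAMP-family protein of macrophages, stood at 565, 725 and 639 CPM against 549, 562 and 522. Its C2S libraries spread more than its controls, and C2S replicate 1 lay just above the highest control (0.24 ± 0.08, adjusted p = 0.0139, edgeR). The Cd68 call was lost without C2S replicate 2 (adjusted p = 0.0795), without PM_control replicate 3 (0.0602), after the GC correction (0.0675) and without TMM factors (0.0950). Cln3, the membrane protein mutated in juvenile Batten disease, rose by 0.28 ± 0.08.

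Scarb2 (LIMP-2), the receptor that brings glucocerebrosidase to lysosomes, was not called at 0.08 ± 0.07. Lamp2, which has a part in autophagosome fusion and in chaperone-mediated autophagy, was not called at 0.05 ± 0.06, with 185, 188 and 173 CPM against 183, 170 and 175. With that GC correction, Lamp2 was called higher (0.34, adjusted p = 0.0001, edgeR). Cd63, a tetraspanin of late endosomes, was not called at -0.02 ± 0.07.

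Genes that deliver hydrolases did not move as a block. Gnptab, chr10:88379132-88447329, encodes the catalytic precursor of the phosphotransferase that starts the mannose 6-phosphate tag. It stood at 178, 184 and 170 CPM with C2S and at 285, 281 and 264 in controls. The groups are far apart, and the log2 fold change was -0.64 ± 0.06 (adjusted p = 1.22e-07, edgeR). Gnptg, the gamma subunit of the same enzyme, was not called although its groups do not overlap, at 13.3, 14.2 and 14.6 CPM against 11.8, 12.9 and 13.0 (0.15 ± 0.14, adjusted p = 0.356, edgeR). Igf2r, chr17:12682406-12769664, the cation-independent receptor of the tag, stood at 433, 457 and 434 CPM against 381, 383 and 348 and rose (0.25 ± 0.06, adjusted p = 0.0018, edgeR). M6pr, the cation-dependent receptor, was not called at -0.06 ± 0.06.

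Grn, chr11:102430315-102437048, encodes progranulin, which is delivered to lysosomes and cut into granulins there. It stood at 1204, 1353 and 1272 CPM with C2S and at 868, 921 and 852 in controls. All C2S libraries were above all controls (0.54 ± 0.06 on the log2 scale, adjusted p = 2.04e-06, edgeR). Dnase2a, the acid nuclease that clears DNA in macrophage lysosomes, was not called by counts (-0.02 ± 0.08) and stood at 101, 85.0 and 94.6 CPM against 92.8, 90.2 and 101. By TPM it was lower with C2S, at 70.3 ± 7.37 against 91.6 ± 7.46 (SD, n = 3; adjusted p = 0.0188, limma). With TPM scaled by the TMM factors this call was lost (adjusted p = 0.0567, limma). Its average transcript length in the tables was 2116.75, 2208.61 and 2119.31 bases with C2S and 1805.07, 1892.28 and 1816.07 in controls, so that the 2 groups' lengths do not overlap. Mast1, which shares 30.0% of the exon length of Dnase2a, had a mean of 19.5 CPM with C2S and 8.13 in controls. The part of shared reads in these lengths was not tested. For 45 of the 51 genes the mean length of the groups agreed within 5%; the exceptions were Dnase2a, Gla, Idua, Mcoln1, Neu1 and Pla2g15.

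TPM allows levels to be compared between genes, since it is scaled by length. By mean TPM over the 6 libraries, the leading members were Ctsb (1539), Ctsd (1186), Cd68 (925), Grn (790) and Lamp1 (707). Gla, with the steepest rise, had 48.7 ± 4.57 TPM with C2S and 14.6 ± 5.71 in controls, and Ctns had 41.5 ± 1.66 and 11.2 ± 1.33 (SD, n = 3). Of the 25 members above the median level of 69.0 TPM, 17 rose and 2 fell, with a median log2 fold change of 0.28. Of the 26 at or below it, 13 rose and 1 fell, with a median of 0.23. Rises were thus found at high and low levels, and the 2 steep ones were both in the lower part.

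Summed over the 51 genes, TPM was 12355, 12920 and 12054 with C2S and 10713, 10961 and 10486 in controls. All C2S sums were higher, with a ratio of the means of 1.16. Of the difference of 1723 TPM, Ctsb made up 27.0%, Grn 14.5%, Ctsd 12.7% and Psap 10.8%, and without these 4 genes the ratio was 1.09. By role, the ratio was 1.30 for Grn and Dnase2a together, 1.20 for lipid genes, 1.19 for peptidases, 1.13 for glycosidases, 1.13 for sulfatases and 1.08 for membrane proteins. It was 0.874 for the delivery genes. There the mean TPM of C2S minus that of PM_control was -33.2 for Gnptab and -20.5 for M6pr, which was not called. It was 7.28 for Igf2r and 1.19 for Gnptg. Gla and Ctns made up 1.98% and 1.76% of the difference of 1723 TPM over the 51 genes. These sums and ratios use TPM without TMM factors. On the log2(TPM + 1) scale the median log2 fold change of all genes was shifted by -0.09 against TMM-scaled counts.

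**Figure D4:**
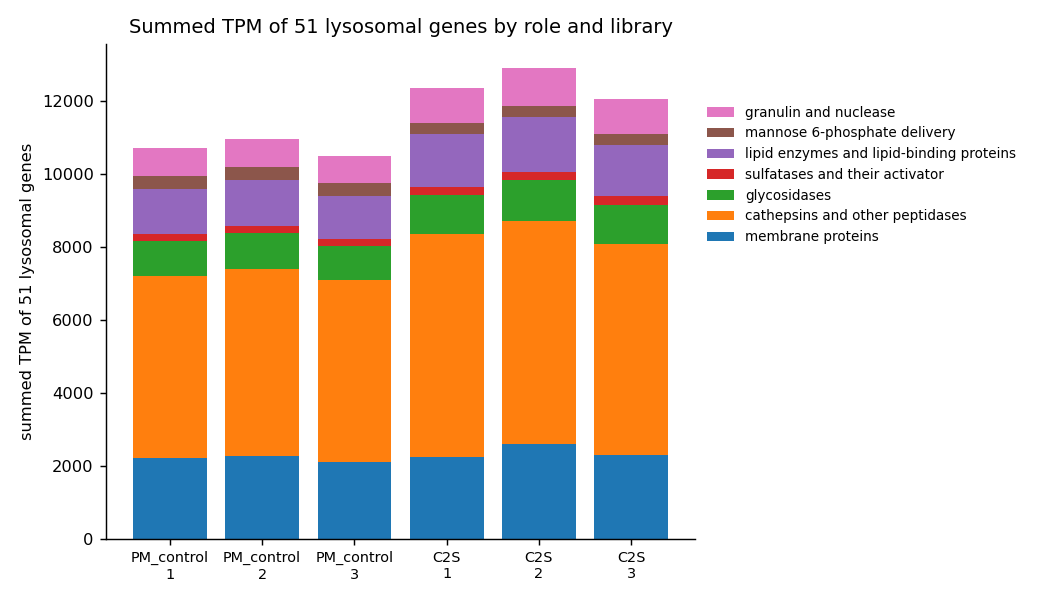
Summed TPM of 51 lysosomal genes (y axis) in each of the 6 libraries, stacked by role. The C2S sums of 12054 to 12920 lie above the PM_control sums of 10486 to 10961, and peptidases are the tallest part of each bar.

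Tested on log2(TPM + 1) with limma, 18 of the 51 genes were called higher and 4 lower, against 14.5% and 26.0% of the 11805 genes whose mean TPM reached 1. On that scale the median of all genes was 0.09 lower (log2) than with TMM-scaled counts, and 35.9% of all calls were higher, against 48.8% with TMM-scaled counts. With library sizes alone in edgeR, 38.3% of all calls were higher and 29 members were called higher and 6 lower, against 21.4% and 34.6% of all genes. The rises that lost their call on the TPM scale were those of Lamp1, Cd68, Mcoln1, Cln3, Ctsz, Tpp1, Galns, Arsa, Arsb, Sumf1, Ppt1 and Igf2r. With TPM scaled by the TMM factors, an alternative chosen after seeing the data, 27 were called higher and 2 lower, against 19.2% and 20.2% of all genes, and of the rises only Cd68, Mcoln1 and Cln3 were then not called. No gene of the 33 called by counts changed direction under any alternative run. Against a threshold of 1.5-fold (glmTreat), Gla and Ctns were still called higher and Pla2g15 lower. Of all 11561 genes tested, 920 were then called higher and 1008 lower, in each direction a larger share than among the 51 genes.

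Other lysosomal genes, taken from textbook lists of the same pathway, were counted in the same fit. Of 88 listed, 87 were matched and 78 tested. Of these 78, 41 rose (52.6%), 10 fell (12.8%) and 27 were not called, with a median log2 fold change of 0.22. Over all genes tested, 27.0% were called higher and 28.4% lower. Among further peptidases 6 of 7 rose and 0 fell by edgeR's test, including Scpep1 (0.63 ± 0.06) and Ctse (0.57 ± 0.09), cathepsin E. Of further glycosidases, sulfatases and heparan enzymes 7 of 11 rose and 1 fell.

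Of 13 further lipid, phosphate and nucleic acid enzymes, 6 rose and 0 fell by edgeR's test, among them the exonucleases Pld4 (0.56 ± 0.06) and Pld3 (0.36 ± 0.08). Of 24 further membrane proteins and transporters, 12 rose and 4 fell. Abcb9, a peptide transporter of the lysosomal membrane, stood at 16.9, 15.4 and 18.6 CPM with C2S against 2.29, 2.53 and 1.47 (log2 fold change 3.0 ± 0.21, adjusted p = 2.48e-09, edgeR). The peptide and histidine transporter Slc15a3 rose by 1.5 ± 0.08 on the log2 scale, while its relative Slc15a4 fell by 0.49 ± 0.08. Mfsd12, a cysteine importer of lysosomes and melanosomes, fell by 0.72 ± 0.07, opposite to the cystine exporter Ctns. Slc15a3 and Mfsd12 share 28.1% and 29.7% of their exon length with another gene.

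Among 15 sorting and delivery genes, 5 rose (33.3%), 2 fell (13.3%) and 8 were not called. The share that rose was near the 27.0% of all genes tested. Cln8, which carries new hydrolases out of the endoplasmic reticulum, rose by 0.61 ± 0.07 on the log2 scale. Of the GGA adaptors, which pick up mannose 6-phosphate receptors at the Golgi, Gga1 rose by 0.43 ± 0.09 and Gga3 fell by 0.72 ± 0.08. The adaptor subunit Ap1g1 fell by 0.37 ± 0.07 and shares 18.7% of its exon length with another gene. On the log2(TPM + 1) scale the calls of Gga3 and Pld3 were lost (adjusted p = 0.121 and 0.165, limma). Counting each alternative run, the call was lost in 5 of 20 for Gga3, 5 of 21 for Pld3 and 2 of 21 for Gga1.

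The MiT/TFE transcription factors that bind the CLEAR element, and proteins that control them, were all called, 5 higher and 3 lower of 8 tested. Over all genes tested, 55.4% were called. Tfeb stood at 24.7, 18.3 and 26.5 CPM with C2S and at 33.7, 40.1 and 34.4 in controls, with no overlap (log2 fold change -0.64 ± 0.13, adjusted p = 0.00039, edgeR). Mitf stood at 37.9, 37.2 and 31.3 CPM against 50.6, 48.2 and 44.4 (-0.43 ± 0.10, adjusted p = 0.0010, edgeR). Tfe3, the factor with the highest mean TPM of these 4, stood at 150, 158 and 160 CPM against 134, 130 and 114 (0.31 ± 0.07, adjusted p = 0.0010, edgeR). The Tfe3 call was lost on the log2(TPM + 1) scale (adjusted p = 0.253, limma). Tfec was low throughout, at 1.57, 1.08 and 1.7 CPM against 2.57, 2.83 and 2.83 (-0.90 ± 0.34, adjusted p = 0.0318, edgeR), and its call was lost with DESeq2 (adjusted p = 0.0727), with the GC correction (0.165) and without any of 5 of the 6 libraries (0.0570 to 0.107). These are levels of RNA, and the factors' place in the cell was not measured.

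Folliculin and its partners, which form a complex that acts on the Rag GTPases and through them on where TFEB and TFE3 sit, had steeper changes. Fnip2 stood at 808, 933 and 894 CPM with C2S and at 152, 148 and 148 in controls (log2 fold change 2.56 ± 0.07, adjusted p = 1.27e-14, edgeR). Flcn stood at 156, 164 and 169 CPM against 44.6, 40.5 and 40.9 (1.95 ± 0.07, adjusted p = 7.03e-13, edgeR). Fnip1, named after its values were seen, stood at 59.5, 61.2 and 66.0 CPM against 18.2, 17.7 and 20.6 (1.73 ± 0.09, adjusted p = 1.27e-10, edgeR). In all 3 genes the lowest C2S value was well over the highest control value. Zkscan3, a repressor of lysosomal genes, also named after its values were seen, rose by 0.57 ± 0.11 on the log2 scale. Rragd was below the count filter.

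**Figure D5:**
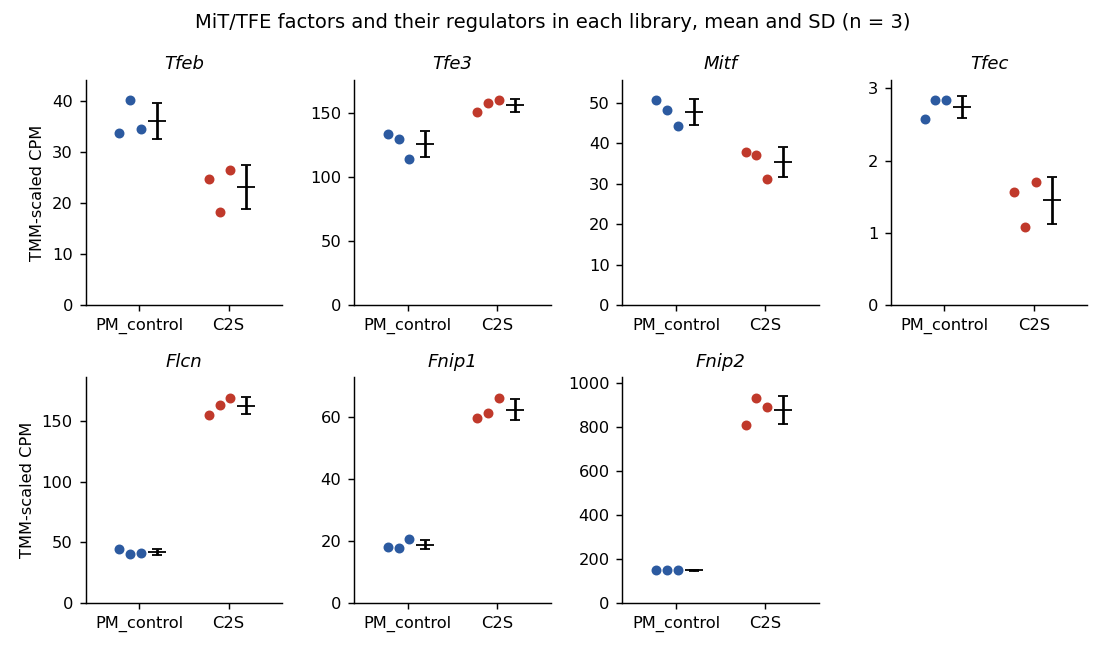
TMM-scaled CPM in each library (points) with mean and SD (n = 3 per group) for 4 MiT/TFE factors and for Flcn, Fnip1 and Fnip2; each y axis starts at 0. Tfeb, Mitf and Tfec are lower with C2S, Tfe3 is higher by counts (not called on the TPM scale), and Flcn, Fnip1 and Fnip2 are higher in every C2S library.

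For the groups above with 0 calls in a direction, DESeq2 and limma-voom also gave 0. For the 9 peptidases, the sulfatases and the holders of GTCACGTG they did not hold with library sizes alone, where Ctsc and Sgsh were called lower, nor for Sgsh with the GC correction or without PM_control replicate 3. At an unadjusted p under 0.05 (edgeR) the count was 1 for the sulfatases and for the holders of GTCACGTG, which is Sgsh in both, and 0 for the others. Limma on log2(TPM + 1) called 1 of the further lipid, phosphate and nucleic acid enzymes, Acp5, lower and gave 0 for the others.

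Library totals were 8594485 to 10665869 estimated counts, and 3 counts corresponded to 0.275 to 0.361 CPM. The smallest count of any of the 51 genes in a library was 91, so none was near that limit. Macrophage markers were present, with a summed 7933 to 8064 CPM over 9 genes with C2S and 6771 to 7151 in controls; of 8 tested, 4 rose and 1 fell, and Mertk was near 0. Osteoclast markers, a fate that RAW264.7 cells can take, summed to 123 to 131 CPM with C2S and to 475 to 570 in controls. Nfatc1 made up most of both sums (106 against 483 CPM). Of 4 tested, 3 fell and 0 rose by edgeR's test, and Calcr was at 0 in all libraries. Ctsk, a protease that osteoclasts also make, was not in this marker list. It was below the count filter, at 1.41 CPM with C2S against 0.131 in controls. Fibroblast, epithelial and lymphoid marker lists were at most 2.26 CPM in sum in any library, and dendritic markers at most 1.67. The part of the macrophage and osteoclast markers' shifts in the lysosomal values was not tested.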

How the data were processed

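RNA of RAW264.7 cells was sequenced in 3 C2S and 3 PM_control libraries, grouped by sample title. The authors trimmed reads with fastp, aligned them to mm10 with STAR, quantified genes with RSEM and tested with edgeR, per the series design text. Which versions, annotation and strand setting they used is not given in the sources used here. Per the file headers, the authors deposited expected counts (RSEM's estimated reads per gene), TPM, FPKM and transcript lengths for 52636 genes. The deposited TPM are scaled for length and depth, and the deposited FPKM were not used.

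Expected counts were rounded and filtered with filterByExpr (minimum 10, total 15), which left 11561 genes and 99.85% of counts. Groups were compared by quasi-likelihood F tests in edgeR 4.0.16 (R 4.3.3) with TMM and Benjamini-Hochberg adjustment over all genes. The SE is the log2 fold change divided by the square root of F. Values in figures and text are TMM-scaled CPM unless called TPM. TPM was tested with limma 3.58.1 on log2(TPM + 1). Symbols (52403 genes), coordinates and exon overlap on either strand are from GENCODE M21 (GRCm38), with members sharing at least 10% of exon length given as uncertain. Promoter sequences are from RefSeq (GRCm38.p6), and words were searched on both strands.

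No libraries of a group were identical (chi-square over degrees of freedom 4.30 to 6.46). On simulated data for this comparison (11414 genes), edgeR recovered 76% of 1.5-fold, 96% of 2-fold and 100% of 4-fold and 8-fold changes. The simulation held far fewer changed genes than were called here and no change below 1.5-fold. Its shares therefore do not carry over to the smaller rises.

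The 51 genes, the other lists, the promoter words and the tests were chosen with earlier results of these data known. Values in every library are given, per role, for up to 3 called rises and 2 falls with the largest fold, for the 5 highest mean TPM, and for uncalled genes whose groups do not overlap. Among other lysosomal genes, up to 2 per direction and list were named; a few of the genes so chosen are not reported here. The alternatives tried were RLE, upper quartile and no normalization factors, DESeq2 1.42.0, limma-voom, TPM with pseudocounts of 1 and 0.1, other filters, a GC correction, leaving out shared reads or each library, a replicate block and glmTreat. TPM with TMM factors was added after seeing the data.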

Additional observations from a re-analysis of the deposited data

How the results depend on the processing

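The 33 called members kept their direction under each of the 21 alternatives that was run for them (20 for Ctsd, which was left out with the genes with shared reads), and 31 of them also kept their call outside glmTreat, the TPM scales and library sizes alone; the exceptions were Cd68 and Gusb. Against 6405 changed genes, 30 members higher and 3 lower, and 41 other lysosomal genes higher and 10 lower, a glmTreat test against 1.5-fold gave 1928, 2 and 1, and 10 and 0 (where edgeR's test against no change called 10). With limma on log2(TPM + 1), on log2(TPM + 0.1) and on log2(TPM + 1) without a filter, members higher were 18, 18 and 17, and others higher 22, 22 and 20. Members lower were 6 with library sizes alone and 5 with unfiltered TPM. Others lower were 6 with unfiltered TPM and 6 with TMM-scaled TPM. The cause was not tested. Leaving out 1 library gave 5901 to 6338 changed genes, 29 to 30 members higher, 2 to 4 lower, 39 to 43 others higher and 8 to 10 lower.

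Samples with the same replicate number did not deviate together (correlations of -0.011, 0.069 and 0.034). Samples with different numbers gave -0.107 to 0.082. No pairing by number was thus seen, but correlations over all genes from so few libraries cannot exclude a weak pairing. With the replicate number as a block, 6489 genes changed, 31 members were higher and 3 lower, and 43 and 10 others; Fuca1 was gained (adjusted p = 0.0494, edgeR).

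Only members that were not called changed sign, 13 of 18. With library sizes alone the log2 fold changes were -0.036 for Lamp2, -0.010 for Scarb2, -0.027 for Manba, -0.036 for Aga and -0.010 for Lipa. On log2(TPM + 1), filtered or not, they were -0.082 for Lamp2, -0.028 for Scarb2, -0.025 for Manba, -0.040 for Idua, -0.049 for Aga and -0.026 for Lipa. On log2(TPM + 0.1) they were -0.082 for Lamp2, -0.029 for Scarb2, -0.025 for Manba, -0.043 for Idua, -0.051 for Aga and -0.026 for Lipa. With the GC trend removed they were 0.029 for Ctsc, 0.096 for Ctss, 0.043 for Ids, 0.053 for Galc and 0.017 for M6pr. Leaving out 1 library gave -0.030 to 0.15 for Aga, -0.066 to 0.058 for Cd63, -0.20 to 0.0062 for Galc and -0.072 to 0.048 for Dnase2a.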
